A study of Mus musculus with 6 samples.

Results

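Embryos lacking Flk1 were set against wild-type embryos by comparing the 2 arrays labelled Flk1KO with the 2 labelled WT, 4 of the 6 arrays of the study. All embryos were of the ICR strain, taken at 8.5 days post coitum with 3 to 4 somites, before blood circulates, and only the embryo proper was dissected. The third group, cells labelled Flk1 positive cell and taken at the same stage, served here for reference and to help estimate the spread between arrays. Each group had 2 arrays, and the knockout allele, the number of embryos behind an array and whether 2 arrays came from separate embryos are unstated in the sources used here. A p-value in this text thus reflects only how these samples vary, and that variation could be technical. Total RNA was hybridised to Affymetrix mouse expression arrays, on which a transcript is read by 1 or several probe sets.

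Flk1, the product of Kdr, is the main signalling receptor for vascular endothelial growth factor A. It marks the mesodermal precursors of endothelial and blood cells, and its ligand guides these cells into the first vessels. At the stage sampled here the heart tube is forming and beginning to contract, the first endothelial networks are assembling, and primitive red cells arise in the yolk sac outside the embryo proper.

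The targeted gene followed the labels. Its single Kdr probe set read 29.5 and 63.8 on the Flk1 KO arrays, 544 and 546 on the WT arrays and 3309 and 3328 on the arrays of Flk1-positive cells. The groups did not overlap, and the knockout mean lay below the background level, a signal of 57.4 derived from olfactory and vomeronasal receptor probe sets. Kdr is therefore given as at least 7.17-fold lower (adjusted p = 0.0459 with limma, a linear model fitted across all probe sets). No source used here places the probe set relative to the deleted part of the gene.

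Loss of Flk1 was accompanied by losses of endothelial transcripts and by no rise that passed the test. Of 33778 probe sets tested, 27 probe sets of 26 genes were lower in the knockout (0.0799% of those tested, limma adjusted p between 0.02 and 0.0478), and 0 were higher (0%). At an unadjusted limma p under 0.05, 1997 probe sets were lower (5.91%) and 837 higher (2.48%). The directions were closer when each gene was counted by its brightest probe set, with 549 of 14949 lower (3.67%) and 391 higher (2.62%). Knockout arrays were also dimmer over the whole array (median signals 79.6 and 74.0 against 83.8 and 84.2), and the part of this in these counts was not tested. Of the 26 genes, 18 belong to 4 lists of endothelial genes (receptors and ligands of the VEGF and Tie families, transcription factors, junction and surface proteins, signalling and secreted proteins), 1 is an embryonic globin, and 7, Kdr included, are in no list. With any 1 of the 6 arrays omitted, limma made 0 calls in either direction. The replicate block, which fits the replicate number as a term, also left 0 of the 27 calls. In bulk samples such as these, fewer cells of a type and less RNA per cell cannot be told apart. The lists were drawn up with earlier results of these data known, so their counts are not independent evidence of a direction.

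**Figure D1:**
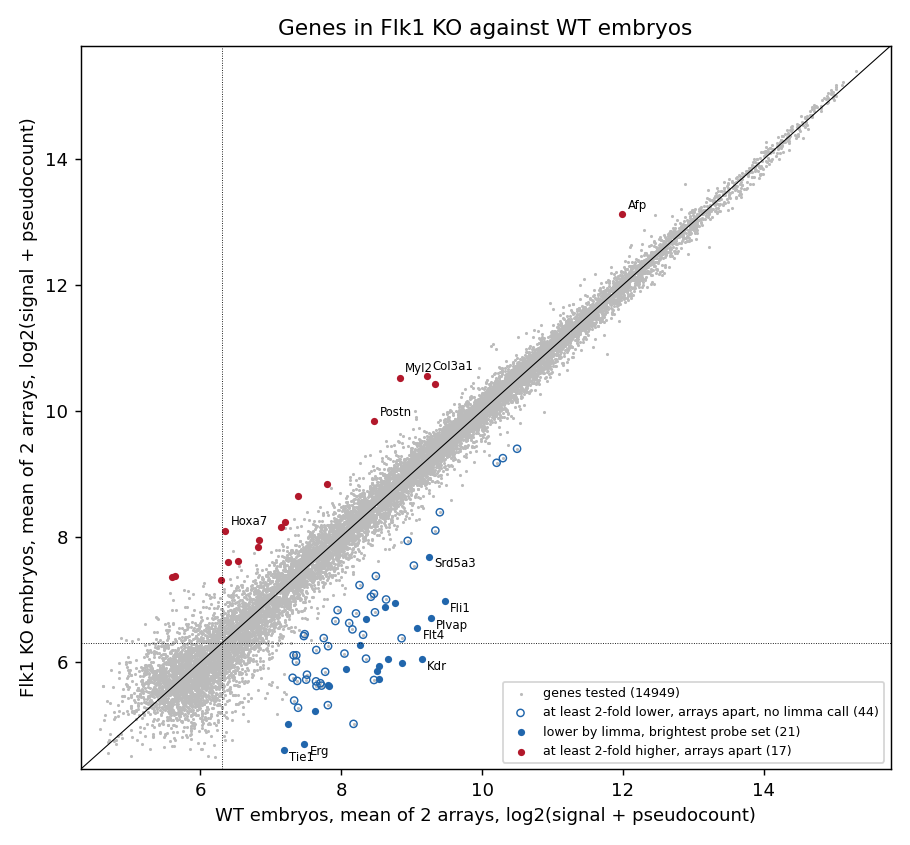
Mean of the 2 Flk1 KO arrays against the mean of the 2 WT arrays for each of 14949 genes by its brightest probe set, both axes in log2(signal + 21.6). Filled blue points are the 21 genes lower by limma, open blue and red points are genes at least 2-fold lower or higher with arrays apart and no limma call, and dotted lines mark the background level of 6.30. Of the 63 falls of 2-fold or more, 33 lie below the background line of the knockout axis, and the 17 rises are fewer and closer to the diagonal.

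The 2 directions differed most among large differences. A gene was counted where both knockout arrays lay on the same side of both WT arrays ("apart") and where the group means, raised to the background level if they lay under it, differed by a given fold. At 1.5-fold or more, 180 genes were lower (1.2% of 14949) and 141 higher (0.943%). At 2-fold or more there were 63 lower (0.421%) and 17 higher (0.114%). At 3-fold or more 23 were lower (0.154%) and 2 higher (0.0134%), and at 4-fold or more 12 were lower (0.0803%) and 0 higher (0%). These counts carry no test. Small differences did not separate the directions: with no limit on size, 2716 genes were apart and lower (18.2%) and 2856 apart and higher (19.1%).

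The same folds were measured between arrays of the same group. Knockout arrays 1 and 2 differed from each other by at least 2-fold in 74 genes and by at least 3-fold in 5, while the WT arrays differed by 2-fold in 23 and by 3-fold in 0. A 2-fold difference was thus as common between the knockout arrays as between the groups, although group means rest on 2 arrays each and single arrays do not. At 5-fold, 7 genes were lower in the knockout (0.0468%) and 0 genes differed within either group. The median absolute difference between arrays on the log2 scale was 0.233 in the knockout and 0.166 in WT, and the arrays correlated at 0.980 and 0.985 across probe sets.

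**Figure D2:**
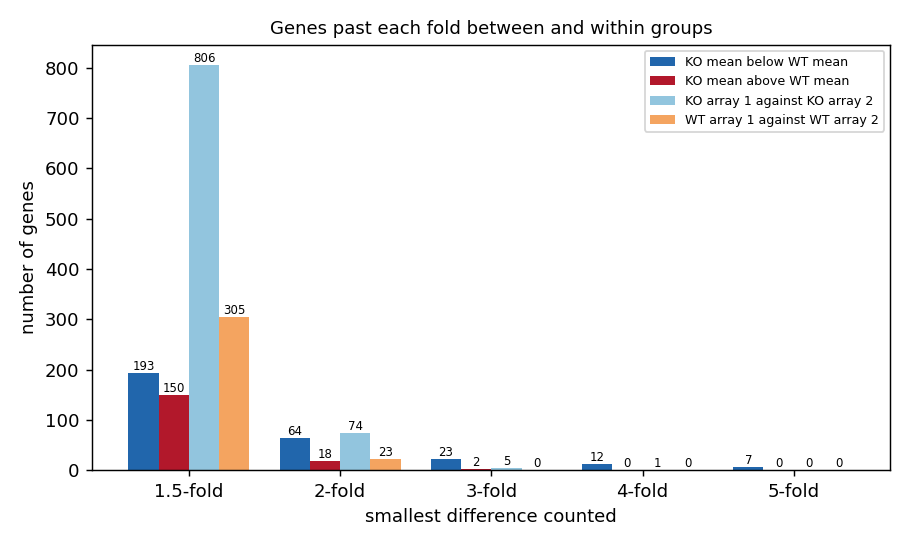
Number of genes (vertical axis) past each fold (horizontal axis) in 4 comparisons: knockout mean below WT mean, knockout mean above WT mean, knockout array 1 against array 2 and WT array 1 against array 2, the last 2 in either direction. Arrays need not be apart here, so the counts at 2-fold are 64 lower and 18 higher. From 3-fold on, genes lower in the knockout outnumber those that differ between arrays of a group.

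Transcription factors of the endothelium were among the deepest losses. Tal1, a basic helix-loop-helix factor needed for blood and endothelial development, had signals of 34.1 and 29.5 in the knockout and 414 and 295 in WT. Its groups were far apart and both knockout arrays were below background, so the fall is at least 4.70-fold (limma adjusted p = 0.0391). Fli1, an ETS family factor, stayed measurable at 95.02 and 114 against 791 and 597. Fli1 fell by 2.50 ± 0.19 on the log2 scale (SE from limma, 2 arrays a group; limma adjusted p = 0.0427). Erg, its close relative, had signals of 6.76 and 2.25 against 161 and 152, at least 2.25-fold lower (limma adjusted p = 0.02). The SOX factors Sox7 and Sox18, which act redundantly in vessels, fell at least 4.61-fold and 5.14-fold (limma adjusted p = 0.02 and 0.0427). Sox18 signals were 57.6 and 34.6 against 388 and 380, and Sox7 signals were 35.5 and 37.5 against 362 and 324.

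Etv2, the ETS factor that starts the endothelial and blood programme in mesoderm, was still above background in the knockout. Its signals were 156 and 173 in the knockout and 555 and 454 in WT. The arrays did not overlap, and the difference of -1.49 ± 0.15 did not pass (limma adjusted p = 0.0775). Elk3, a repressor of the ETS family, had 209 and 303 against 628 and 623, and Lyl1, a relative of Tal1, had 52.9 and 10.995 against 212 and 151. Lmo2, a partner of Tal1, kept more of its signal, with 547 and 426 against 882 and 729, a 1.63-fold difference that did not pass. Gata2 (1.88-fold) and Hhex (1.87-fold) were likewise lower on both knockout arrays without passing. Of 25 endothelial transcription factors tested, 5 fell by limma and 0 rose. Of them 17 were apart and lower (68%, against 18.2% of all genes) and 2 apart and higher (8%, against 19.1%). At an unadjusted limma p under 0.05, 13 were lower, against 3.67% of all genes. The median difference was -0.55 on the log2 scale, against 0.00 over all genes tested.

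Other members of the same list differed little. Ets1 had signals of 967 and 828 in the knockout and 1045 and 982 in WT (-0.17 ± 0.14). Mef2c had 578 and 666 against 640 and 664, Foxc1 997 and 1083 against 1007 and 1138, and Klf2, a flow-responsive factor, 64.5 and 65.2 against 59.6 and 89.3. The knockout and WT arrays of Mef2c, Foxc1 and Klf2 overlapped. Nr2f2, a factor of veins and of much embryonic mesenchyme, lay slightly higher in the knockout (675 and 660 against 630 and 572). A p that misses the threshold does not show that these levels were equal.

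Junction and surface proteins had the largest share of genes apart and lower among the 25 lists. Esam, an adhesion molecule of endothelial tight junctions, had signals of 35.6 and 49.2 against 423 and 470 and fell at least 5.92-fold (limma adjusted p = 0.0224). Cldn5, the main endothelial claudin, had 43.2 and 36.5 against 365 and 336 and fell at least 4.71-fold (limma adjusted p = 0.02). Both genes lay below background on both knockout arrays and well above it on both WT arrays. Plvap, the protein of endothelial fenestral and vesicle diaphragms, remained above background at 68.3 and 99.03 against 653 and 542, and fell by 2.57 ± 0.19 on the log2 scale (limma adjusted p = 0.0427). Cd34, a sialomucin of endothelial and blood progenitors, had 88.9 and 75.4 against 316 and 296 and fell 3.16-fold (limma adjusted p = 0.0459). The gap junction gene Gja4 and the lectin-like receptor Cd93 fell at least 2.86-fold and 2.84-fold (limma adjusted p = 0.0427 for each). In all of these the WT arrays lay above the knockout arrays.

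The classic endothelial markers Cdh5 and Pecam1 did not pass singly. Cdh5, VE-cadherin, had 30.2 and 30.8 in the knockout and 183 and 113 in WT, at least 2.10-fold lower by value (limma adjusted p = 0.132). Pecam1 had 49.9 and 45.2 against 173 and 110, at least 2.03-fold lower (limma adjusted p = 0.219). Their WT arrays differed from each other more than their knockout arrays did. Eng, the endothelial co-receptor of the TGF-beta family, had 87.6 and 71.5 against 270 and 179. Of 34 genes in this list, 6 fell by limma by their brightest probe sets and 0 rose. Lyve1 was called by the other of its 2 probe sets (2.99 and 1 against 90.9 and 67.9, at least 1.27-fold, limma adjusted p = 0.0427). Gpr182 (at least 4.14-fold) and Calcrl (3.21-fold) were lower without passing (limma adjusted p = 0.0607 and 0.0736). In this list 30 genes were apart and lower (88.2%, against 18.2% of all genes) and 0 apart and higher, and the median was -1.24. Counting group means under background as equal to it, the median was -1.01.

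A few surface genes stood out from the rest of their list. Aplnr, the apelin receptor, which lateral mesoderm also expresses, had signals of 5261 and 7287 in the knockout and 9638 and 9493 in WT, 1.54-fold lower without passing. Podxl, shared with several epithelia, had 4607 and 4791 against 5129 and 5024. Robo4, an endothelial roundabout receptor, had 75.0 and 66.0 against 74.4 and 53.8, and Thbd, thrombomodulin, had 101 and 155 against 112 and 176. The groups overlapped in Robo4 and Thbd.

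In the list of VEGF and Tie receptors, ligands and partners, 3 receptors passed the test. Flt4, the VEGF-C receptor, had 67.8 and 75.3 in the knockout and 532 and 506 in WT, and fell by 2.54 ± 0.13 on the log2 scale (limma adjusted p = 0.02). Plxnd1, a semaphorin receptor that guides vessels, had 101 and 101 against 446 and 381 and fell by 1.82 ± 0.14 (limma adjusted p = 0.0427). Tie1, an orphan receptor of the Tie family, had 4.60 and 1.02 against 105 and 146 and fell at least 1.84-fold (limma adjusted p = 0.0427). In these 3 receptors both knockout arrays lay below both WT arrays. Flt1, the decoy receptor for VEGF-A, had 84.3 and 47.4 against 124 and 194, and Tek, the angiopoietin receptor, had 296 and 439 against 739 and 723. Flt1 (-1.05 ± 0.28) and Tek (-0.98 ± 0.20) were apart but did not pass (limma adjusted p = 0.419 and 0.304).

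No neuropilin or ligand of the list was called. The co-receptor Nrp1 had 1389 and 1918 in the knockout and 2043 and 1866 in WT, and Nrp2 had 1303 and 1219 against 982 and 1126. Vegfa, the ligand of Flk1, had 829 and 712 against 556 and 723, so the groups overlapped (0.27 ± 0.19). Vegfb (988 and 752 against 781 and 762), Vegfc (603 and 850 against 790 and 622), Vegfd (63.0 and 40.4 against 47.5 and 53.5) and Angpt2 (155 and 125 against 125 and 152) overlapped as well. Angpt1, the activating ligand of Tek, lay higher on both knockout arrays at 283 and 322 against 192 and 194 (0.59 ± 0.14, limma adjusted p = 0.381), as did Pgf at 307 and 364 against 229 and 204. Sema3e, the ligand of Plxnd1, was apart and lower at 623 and 850 against 937 and 1049 (-0.43 ± 0.21), without passing. Of the 15 genes, 3 fell and 0 rose by limma, 6 were apart and lower (40%, against 18.2% of all genes) and 3 apart and higher (20%, against 19.1%).

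Among signalling and secreted endothelial proteins, Rasip1, needed for vessel lumens, had 49.3 and 62.1 against 313 and 260. It fell at least 3.89-fold (limma adjusted p = 0.0433). Mmrn2, a matrix protein of endothelial cells, fell at least 3.72-fold by its probe set with 22.9 and 15.2 against 281 and 263 (limma adjusted p = 0.02), and all 4 of its probe sets were apart and lower. Nos3, endothelial nitric oxide synthase, had 122 and 92.3 against 427 and 332 (3.11-fold, limma adjusted p = 0.0983), and Egfl7, a secreted endothelial protein, had 379 and 258 against 661 and 647 (2.02-fold), neither passing. Ctla2a, a cysteine protease inhibitor, had 21.3 and 2.98 against 307 and 233, at least 3.66-fold lower, and did not pass (limma adjusted p = 0.0683). Of 28 genes 1 fell by limma and 0 rose by the brightest probe set. Of these 28, 18 were apart and lower (64.3%, against 18.2% of all genes) and 5 apart and higher (17.9%, against 19.1%), and the median was -0.95. It was -0.30 once means under background were counted as equal to it, since 8 of the 28 were below background in both groups. Kank3 (137 and 126 against 122 and 126), Hspa12b (98.2 and 116 against 92.6 and 91.6) and Edn1, the peptide endothelin (75.2 and 109 against 56.9 and 59.6), were apart and higher by value without passing.

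Besides Kdr, 6 called genes were in no list. Rhoj, a small GTPase of endothelial cells, had 39.9 and 36.1 in the knockout and 259 and 237 in WT and fell at least 3.41-fold (limma adjusted p = 0.0238). The potassium channel genes Kcnk6 (105 and 88.2 against 378 and 365, 3.33-fold) and Kcne3 (14.8 and 7.46 against 146 and 117, at least 1.92-fold) fell, as did Thsd1 (12.3 and 19.2 against 182 and 170, at least 2.50-fold), with limma adjusted p = 0.0427, 0.0478 and 0.0258. Srd5a3, an enzyme of dolichol synthesis, fell by 1.57 ± 0.12 by its probe set with 184 and 183 against 604 and 570 (limma adjusted p = 0.0427). Of the other 4 Srd5a3 probe sets 1 was apart and higher and 3 overlapped, so the fall rests on 1 of 5. Fancc, a DNA repair gene, likewise fell by 1 of 3 probe sets (19.7 and 22.7 against 112 and 112, limma adjusted p = 0.0427), and the other 2 overlapped.

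**Figure D3:**
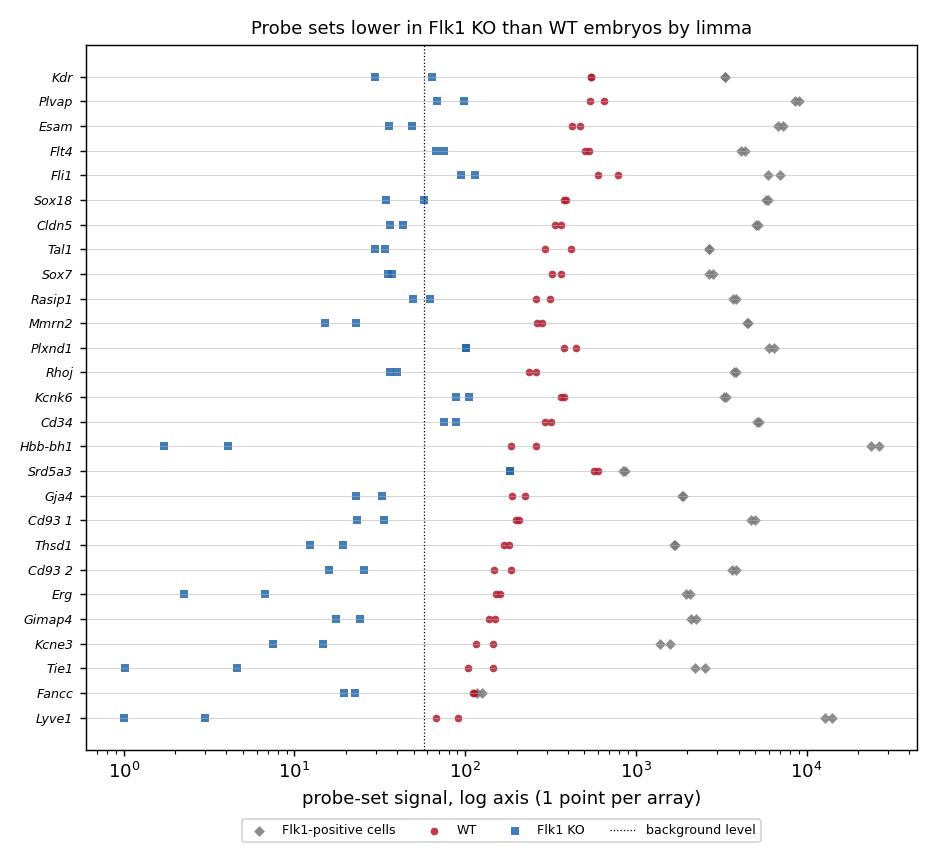
Signal on each of the 6 arrays (horizontal log axis) for the 27 probe sets lower in Flk1 KO than WT embryos by limma, 1 row a probe set, ordered by size of the fall. Squares are knockout, circles WT and diamonds Flk1-positive cells, and the dotted line is the background level of 57.4. All knockout points lie left of all WT points, and 20 of the 27 knockout means lie below background.

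Signals of Flk1-positive cells were 6802 and 7291 for Esam, 5084 and 5226 for Cldn5, 5957 and 7007 for Fli1 and 4124 and 4374 for Flt4. They were 858 and 839 for Srd5a3 and 118 and 125 for the called probe set of Fancc. A comparison of these cells with WT would use the same WT arrays as the knockout comparison, so the values are given side by side only.

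Among blood genes, an embryonic globin was the only member of the 2 blood lists with a called probe set. Hbb-bh1, an embryonic beta-like globin of primitive red cells, had 4.06 and 1.71 in the knockout and 259 and 187 in WT by 1 of its 3 probe sets. That probe set was at least 3.06-fold lower (limma adjusted p = 0.0224). The other 2 were apart and lower without passing, with the brightest at 35.2 and 27.2 against 484 and 225. Hbb-y, a second embryonic globin, had 68.0 and 7.23 against 339 and 99.05, and Hba-x, the embryonic alpha-like globin, overlapped at 70.0 and 7.84 against 105 and 51.5. The WT arrays differed from each other in Hbb-y, and 1 knockout array lay below background in each of the 2 genes.

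The red cell regulators Gata1 (45.6 and 73.6 against 61.4 and 103) and Klf1 (55.1 and 19.3 against 27.9 and 28.9) overlapped near background. Of 17 primitive erythroid genes tested, 0 were called by the brightest probe set, 5 were apart and lower (29.4%, against 18.2% of all genes) and 2 apart and higher (11.8%, against 19.1%). Among 21 genes of other blood cells, 0 were called, 9 were apart and lower (42.9%) and 2 apart and higher (9.52%). Below background in both groups were 5 of the 17 and 7 of the 21, and such genes can still count as apart. Mpo (31.0 and 12.7 against 41.1 and 57.2) is an example. Counting group means under background as equal to it, the medians of the erythroid and other blood lists were -0.04 and -0.05. Itga2b, an integrin of early blood progenitors and platelets, had 266 and 190 against 330 and 321, and Runx1, the factor of definitive blood, had 57.5 and 62.0 against 63.5 and 102. The pan-leukocyte gene Ptprc was below background on all 4 embryo arrays.

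Several components of Notch and TGF-beta signalling that vessels use were lower by value, while the medians of their lists were near 0. The Notch ligand Dll4 had 57.3 and 78.8 in the knockout and 141 and 137 in WT (1.81-fold), and the receptor Notch4 had 72.1 and 66.3 against 173 and 109 (1.75-fold). Tgfb1 (1.83-fold), the receptor Tgfbr2 (1.77-fold) and the endothelial receptor Acvrl1 (1.69-fold) were lower too, and none of these 5 passed. Over the 19 Notch genes 0 were called, with a median of -0.06. With median centring it was 0.04, still under the median of all genes, which moved to 0.10. Of the 19 Notch genes 6 were apart and lower (31.6%, against 18.2% of all genes) and 4 higher (21.1%, against 19.1%). Over the 20 BMP and TGF-beta genes 0 were called, 3 were apart and lower (15%) and 6 higher (30%), with a median of 0.00. At an unadjusted limma p under 0.05, 3 Notch genes were lower and 0 higher, and 3 BMP and TGF-beta genes were lower and 1 higher. Over all genes these shares were 3.67% lower and 2.62% higher. Tgfb2, a ligand made by heart and mesenchyme, was the highest of the latter, with 619 and 657 against 398 and 427 (0.60 ± 0.13).

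In some genes 1 knockout array was low and the other nearer WT. Lefty1, an inhibitor of Nodal signalling, had 15.5 on knockout array 1 and 181 on array 2, against 255 and 342 in WT. Nodal itself had 49.4 and 161 against 249 and 204, the pluripotency factor Pou5f1 169 and 470 against 523 and 506, and the posterior ligand Wnt8a 86.0 and 258 against 282 and 253. Array 1 was the low array in each of these 4 genes, which were picked for it, and in Wnt8a the groups overlapped. Over all genes the knockout arrays differed by 2-fold or more with array 1 higher in 41 and array 2 higher in 33. Sox17, which marks both endothelium and definitive endoderm, followed with 369 and 921 against 1232 and 1238, and Zap70 and Vapb showed the same pattern (40.9 and 256 against 319 and 324; 364 and 1153 against 1367 and 1483). None of these genes passed limma, and Nodal, Pou5f1, Wnt8a, Zap70 and Vapb were named after their values were seen.

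Knockout array 1 also had lower signals of Y-linked genes than array 2: 269 and 687 for Eif2s3y, 178 and 366 for Uty and 210 and 450 for Kdm5d. WT arrays had 558 and 874, 322 and 537, and 305 and 398. Xist ran the other way, at 2266 and 1173 in the knockout and 1423 and 986 in WT. All 4 sex-linked genes overlapped between the groups, and their part in the falls above was not tested. RNA control probe sets were alike in both groups: the 3' minus 5' difference of Actb lay between 0.47 and 0.58 on the log2 scale over the 4 arrays, and that of Gapdh between -0.37 and -0.32.

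Heart muscle genes had the largest share of genes apart and higher among the 25 lists, though none passed limma. Of 30 cardiomyocyte genes, 19 were apart and higher (63.3%, against 19.1% of all genes) and 0 apart and lower, and 11 were higher at an unadjusted p under 0.05 (2.62% of all genes). The summed signal of the list was 69772 and 52932 on the knockout arrays and 42671 and 43252 on the WT arrays. Knockout array 1 was the highest, and both knockout arrays exceeded both WT arrays. The median difference was 0.46 on the log2 scale, and 0.32 without knockout replicate 1.

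Genes of the contractile apparatus and transcription factors of the list are given separately, a split made after the values were seen, and their difference was not tested. Of 14 sarcomere genes 13 were apart and higher, against 19.1% of all genes, with a median of 0.74. Myl2, the ventricular regulatory light chain, had 2070 and 1014 in the knockout and 435 and 432 in WT, 3.23-fold higher (limma adjusted p = 0.271). Its knockout arrays differed from each other about as much as the nearer of them did from WT. Actc1, cardiac actin, had 15550 and 9953 against 7426 and 7628, and Myl7, the atrial light chain, had 10708 and 7347 against 5619 and 5536. Myh6, a cardiac myosin heavy chain, had 2251 and 1905 against 982 and 1231, and Myl4 had 3713 and 3016 against 2140 and 1829. Tnni3, the adult cardiac troponin I, had 249 and 120 against 81.8 and 61.9. Titin (Ttn) was the exception, at 671 and 600 against 645 and 726.

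Of the 10 cardiac transcription factors 3 were apart and higher (30%, against 19.1% of all genes), with a median of 0.04. Nkx2-5 had 582 and 463 against 430 and 422, while Hand2 (1683 and 1848 against 1736 and 1717), Gata4 (347 and 312 against 292 and 333) and Tbx20 (896 and 1231 against 1007 and 967) overlapped. Isl1, which marks progenitors that add to the heart tube, had 749 and 1174 against 1211 and 1019. Endocardial genes, which line the heart, were mixed. Of 11 genes of endocardium and cardiac jelly tested, 0 were called, with a median of 0.08. In this list 4 were apart and lower (36.4%, against 18.2% of all genes) and 3 apart and higher (27.3%, against 19.1%). Postn, given below, and Vcan (0.40 on the log2 scale) rose most. Nfatc1 had 109 and 152 in the knockout and 241 and 234 in WT (1.72-fold lower), Npr3 had 299 and 367 against 522 and 530 (1.55-fold lower), and Hapln1, a hyaluronan link protein, had 881 and 1108 against 1845 and 1892 (1.87-fold lower), none passing. Has2, which makes the hyaluronan of cardiac jelly, overlapped at 1378 and 1484 against 1218 and 1498.

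Several mesenchymal and smooth muscle genes were also higher by value. Col3a1, a fibrillar collagen, had 1705 and 1287 in the knockout and 530 and 624 in WT, 2.52-fold higher (limma adjusted p = 0.149). Postn, periostin of cushion and other mesenchyme and a member of the endocardial list, had 754 and 1047 against 317 and 347, 2.58-fold higher (limma adjusted p = 0.147). In both genes the knockout arrays differed from each other by less than either differed from the WT arrays. Smooth muscle actin (Acta2, 9255 and 6068 against 5040 and 5040), calponin (Cnn1, 328 and 285 against 172 and 214) and the pericyte gene Rgs5 (658 and 862 against 475 and 420) followed. Of 18 genes in the mural and mesenchymal list, which leaves out Postn, 10 were apart and higher (55.6%, against 19.1% of all genes). Apart and lower was 1 (5.56%, against 18.2%), with 0 called and a median of 0.39. The exception was Pdgfb, the ligand that endothelial cells make to recruit mural cells, at 42.5 and 20.9 against 83.9 and 78.3. Its receptor Pdgfrb overlapped between the groups (879 and 1038 against 862 and 926).

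Several genes of yolk sac endoderm were higher by value and without passing, although the tissue labelled is the embryo proper. Afp, alpha-fetoprotein, had 8035 and 9851 in the knockout and 3648 and 4477 in WT, 2.20-fold higher (limma adjusted p = 0.177). Apoa2 had 794 and 740 against 454 and 413, and Rbp4, a retinol carrier, had 2604 and 2345 against 1654 and 1720. Apoc2 went the other way (1299 and 1299 against 1607 and 1522), and Apob overlapped (383 and 1041 against 816 and 1274). Of 22 genes 12 were apart and higher (54.5%, against 19.1% of all genes), 3 apart and lower and 7 overlapping, 0 were called, and the median was 0.21. The summed signal was 39820 and 41887 in the knockout and 32687 and 35428 in WT. Alb, a liver gene of the same list, was at or near background on the embryo arrays (59.0 and 26.8 against 28.5 and 34.6). The part of these markers in other differences was not tested.

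The remaining rises of 2-fold or more were in genes of several kinds, among them the muscle genes Fsd2 and Mylk3, which are outside the cardiomyocyte list. Hoxa7, a trunk patterning gene, had the largest, at 276 and 229 against 44.8 and 78.7, or 3.35-fold, and did not pass (limma adjusted p = 0.526). Hoxc4 (758 and 768 against 734 and 651) and Hoxb9 (632 and 627 against 508 and 581) were near their WT levels. Of 25 Hox and Cdx genes 10 were apart and higher (40%, against 19.1% of all genes) and 5 lower (20%, against 18.2%), with a median of 0.14. Zic1, a neural plate gene, had 518 and 272 against 136 and 157, and En2, a midbrain gene, had 291 and 238 against 120 and 121. In contrast Sox2 (4177 and 4992 against 5470 and 5350) and Otx2 (700 and 918 against 765 and 822) were not higher. Otx1 (288 and 239 against 125 and 164) was apart and higher. Of 25 neuroectoderm genes 8 were apart and higher (32%, against 19.1% of all genes) and 6 lower (24%, against 18.2%), with a median of 0.01. At an unadjusted limma p under 0.05, 5 were higher (2.62% of all genes) and 0 lower (3.67% of all genes). Ndrg2 (185 and 161 against 54.7 and 71.0), Fsd2, a muscle protein (175 and 119 against 35.9 and 21.5), and Mylk3, the cardiac light chain kinase (192 and 264 against 75.9 and 111), were apart and higher.

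**Figure D4:**
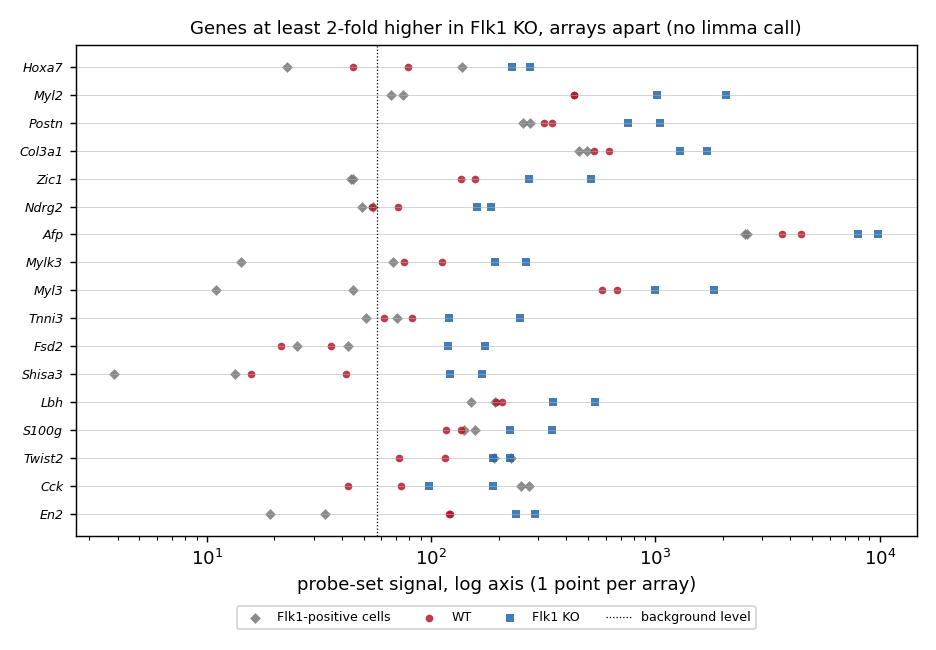
Signal on each of the 6 arrays (horizontal log axis) for the 17 genes at least 2-fold higher in Flk1 KO than WT embryos with arrays apart, 1 row a gene, ordered by size. Squares are knockout, circles WT and diamonds Flk1-positive cells, and the dotted line is the background level. No gene shown passed limma, and the 2 knockout arrays of Myl2, Zic1, Myl3 and Tnni3 lie visibly apart from each other.

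Counts in both directions moved with the model and with single arrays. Without knockout replicate 2 the genes at least 2-fold higher went from 17 to 52, and without any 1 of the 4 arrays the genes at least 2-fold lower lay between 58 and 88. With a robust prior variance that follows intensity, limma called 121 probe sets lower and 13 higher, and all 27 of the calls above were among the 121. Those 13 belonged to 12 genes, among them Afp (by 2 probe sets), Col3a1, Postn, Myl2, Myl4, Apoa2 and the metallothionein Mt1. Centring each array on its median moved the median of all genes from 0.00 to 0.10, and the split at 2-fold from 63 lower and 17 higher to 53 and 27.

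Lists of general state stayed near the median of all genes. Of all genes 18.2% were apart and lower and 19.1% apart and higher. Shares are given for the hypoxia, cell cycle, trophoblast and immediate early lists, and only counts for the others here. Among those others, the share apart and lower exceeded that of all genes for basement membrane (35%), neural crest, gut endoderm and amino acid stress. The share apart and higher exceeded it for p53, neural crest, somite and basement membrane (20%). Their remaining shares were smaller than those of all genes. Over 27 hypoxia and glycolysis genes, 2 were apart and lower (7.41%) and 3 higher (11.1%), with a median of 0.09. Differences were above 0 in 22 of the 27 and below 0 in 5, against 7526 and 7423 over all genes. Ndrg1 was apart and higher at 411 and 438 against 273 and 292 without passing, while Pdk1 lay lower by value (-0.55 on the log2 scale). Ldha had 31635 and 26024 in the knockout and 27399 and 26261 in WT, and Adm, a hypoxia target, 154 and 123 against 130 and 125. Over 27 cell cycle genes 3 were apart and lower (11.1%) and 6 higher (22.2%), with a median of 0.01. Over 15 genes of the p53 response and apoptosis 2 were lower and 5 higher (median 0.02), and over 19 genes of amino acid and unfolded protein stress 4 were lower and 3 higher (median 0.00). Somite and presomitic genes (3 lower and 6 higher of 23), neural crest genes (4 and 5 of 14), gut endoderm genes (5 and 3 of 18) and basement membrane genes (7 and 4 of 20) had medians between -0.04 and 0.02, and 0 members of any of these 8 lists were called. Trophoblast genes (3 lower, 30%, and 2 higher, 20%, of 10, median -0.08) had 0 calls as well. So did immediate early and heat shock genes (6 lower, 26.1%, and 5 higher, 21.7%, of 23, median -0.07). With median centring the somite, neural crest, basement membrane, trophoblast and immediate early medians turn sign, while the median of all genes moves to 0.10.

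**Figure D5:**
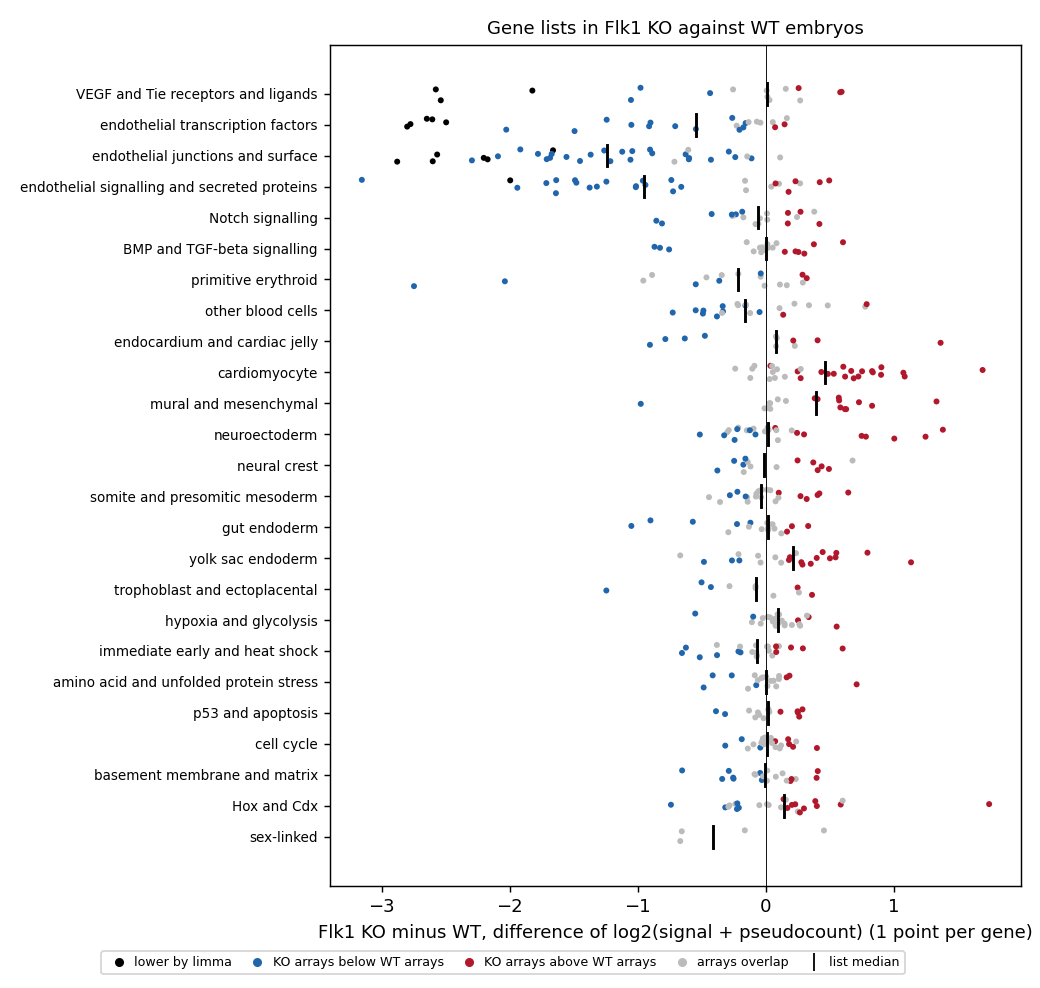
Difference Flk1 KO minus WT on the log2(signal + 21.6) scale (horizontal axis) for each tested gene of 25 lists, 1 row a list and 1 point a gene, with the list median as a vertical bar. Black points were called lower by limma, blue and red points have knockout arrays all below or all above the WT arrays, and grey points overlap. The 4 endothelial lists at the top reach far to the left, the cardiomyocyte and mesenchymal lists lie to the right, and most others straddle 0.

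Against background, 166 genes were above it on both WT arrays and below it on both knockout arrays (1.11%), and 77 showed the reverse (0.515%). The knockout arrays were dimmer over the whole array, with median signals of 79.6 and 74.0 against 83.8 and 84.2. They had 56.0% and 54.3% of probe sets above background against 57.2% and 57.3%. The 166 and 77 were not counted again after median centring, so the part of this shift in them was not tested. The first set held Esam, Tal1, Cldn5, Sox7, Erg, Icam2 (25.5 and 30.4 against 178 and 202) and Stab1 (41.8 and 22.5 against 175 and 146). The second held Shisa3 (168 and 121 against 41.7 and 15.7), Fsd2, the proneural gene Neurog2 (120 and 92.1 against 27.3 and 26.9) and Tecrl (178 and 88.6 against 44.2 and 44.4), at lower signals and with no call. Of the 63 falls of 2-fold or more, 33 are lower bounds because the knockout mean was below background, and 30 were measured in both groups. Of the 17 rises 3 are bounds.

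Of the 26 called genes, 14 have 1 tested probe set and 12 have several. Besides the 27 called probe sets, which were lower by selection, these genes have 21 others, of which 12 were apart and lower, 2 apart and higher and 7 overlapping. All 3 Hbb-bh1, all 4 Mmrn2 and both Fli1 probe sets were apart and lower. The exceptions were in Cd93 (3 of 5 lower), Srd5a3 (1 of 5), Fancc (1 of 3) and Sox7 (1 of 2), and the second Sox7 probe set was below background on all 4 arrays.

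The promoters of the called genes are shown here because these genes fell together and include ETS, SOX and Tal1 factors. A RefSeq table (GRCm38.p6) gave the 250 bases before and 50 bases after the annotated start for 16 of the 26 genes, with 20 promoters in all. The letters AGGAAG, a core bound by ETS factors, were searched on both strands and occurred in 10 of the 16 genes (62.5%), against 37.3% of 11946 tested genes with a promoter in the table. The GATA motif AGATAA was found in 2 of the 16 (12.5%, against 8.55%). The SOX motif ACAAAG was found in 0 of the 16, against 17.3%. The forkhead motif GTAAACA was also found in 0 of the 16, against 3.28%. The 4 promoters with at least 2 matches are printed 5' to 3' along the gene's strand, with the matches, or their reverse complements, in capitals. Tie1 lies at chr4:118489800-118490099 (minus strand), Plxnd1 at chr6:115994956-115995255 (minus), Gimap4 at chr6:48684328-48684627 (plus) and Erg at chr16:95459299-95459598 (minus).
Tie1: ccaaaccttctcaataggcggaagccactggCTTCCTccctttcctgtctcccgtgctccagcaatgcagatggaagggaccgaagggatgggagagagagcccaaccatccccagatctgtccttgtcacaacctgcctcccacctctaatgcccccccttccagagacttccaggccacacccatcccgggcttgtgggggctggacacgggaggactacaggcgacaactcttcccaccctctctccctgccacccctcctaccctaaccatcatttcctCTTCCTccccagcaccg
Plxnd1: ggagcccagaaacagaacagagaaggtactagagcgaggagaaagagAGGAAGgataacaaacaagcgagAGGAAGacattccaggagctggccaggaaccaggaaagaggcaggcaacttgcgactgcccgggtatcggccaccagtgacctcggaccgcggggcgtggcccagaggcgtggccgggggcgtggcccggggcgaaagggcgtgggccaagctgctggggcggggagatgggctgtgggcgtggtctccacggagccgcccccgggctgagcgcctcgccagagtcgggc
Gimap4: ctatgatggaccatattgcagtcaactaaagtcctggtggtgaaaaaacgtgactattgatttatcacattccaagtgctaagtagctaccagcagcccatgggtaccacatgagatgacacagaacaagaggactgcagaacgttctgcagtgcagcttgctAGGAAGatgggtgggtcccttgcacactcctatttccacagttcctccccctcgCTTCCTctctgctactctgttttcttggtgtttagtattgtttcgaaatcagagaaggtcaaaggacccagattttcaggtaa
Erg: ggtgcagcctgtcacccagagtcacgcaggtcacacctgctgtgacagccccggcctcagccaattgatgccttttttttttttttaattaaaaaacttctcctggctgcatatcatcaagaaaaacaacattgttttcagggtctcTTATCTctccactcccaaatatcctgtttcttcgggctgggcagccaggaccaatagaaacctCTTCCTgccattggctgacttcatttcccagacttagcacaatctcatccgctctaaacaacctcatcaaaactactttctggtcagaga
In Gimap4, a GTPase of endothelial and blood cells that fell at least 2.09-fold by 1 of its 2 probe sets (limma adjusted p = 0.0427), both matches are ETS letters, as they are in Tie1 and Plxnd1, and in Erg they are 1 ETS and 1 GATA match. The promoters of Kdr, Cldn5, Flt4 and Gja4 held no match to any of the 4 motifs. A match is a run of letters and not a binding site, and its absence says only that these letters are not in this window.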

How the data were processed

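The authors purified total RNA with an RNeasy Micro kit and labelled it with biotin, per the labels' protocols, and the series' design text names GeneSpring. The authors deposited 1 signal value, on a linear scale, for each of 45101 probe sets on each array. Their trimmed mean (2% left out at each end) was 500 on every array and their lowest value 1, so they were scaled before deposit. Which program did so is unstated in these sources, and no detection calls were used.

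Gene names came from the platform annotation where it gave 1 symbol a probe set (34945 of them; 932 had several, 9211 none), and 34754 symbols were found in a RefSeq table. The scale as deposited was kept. Signals were transformed to log2(signal + 21.6), the pseudocount being the 25th percentile of all values, which understates differences of dim genes. Left out were 64 control probe sets and those whose mean log2 value over the 6 arrays fell below the 25th percentile. The remaining 33778 probe sets of 14949 genes were tested with limma 3.58.1 under R 4.3.3 on all 6 arrays. The tests were two-sided and moderated, with 3 residual and 2.49 prior degrees of freedom. Benjamini-Hochberg adjustment was made over all probe sets tested, with a threshold of 0.05. The probe set of highest mean over the 6 arrays stood for its gene. Flk1-positive cells counted in both means, so genes dim in both embryo groups could enter through them. Clec14a (16.6 and 13.9 in the knockout, 55.4 and 53.1 in WT, 3231 and 3157 in these cells) is an example. Its embryo means are below background, and it counts as apart and lower. Background was taken from 80 probe sets of olfactory and vomeronasal receptors, as their 95th percentile averaged over arrays (6.30 on the log2 scale). A group mean below it was set to it, and the fold is then given as "at least". The number of arrays limits the precision.

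Members and lists were chosen with earlier results of these data known. Named genes, of which not all are printed here, are Kdr, every called gene and the 20 largest rises and falls with arrays apart. They also include up to 3 members a list in each direction, the 10 largest switches across background each way, and all VEGF, Tie and sex-linked genes. Further list members are given as values and were chosen after their values were seen, to show members that differed little or that complete a group. Of 539 listed genes 510 matched a probe set and 497 were tested. No set test was made. Replicate numbers were checked as pairs: deviations of the same number correlated at 0.02 between knockout and WT over the probe sets tested. This cannot exclude a pairing that moves few genes, and the replicate numbers are not stated to pair arrays. On simulated data over 33778 probe sets, limma for Flk1 KO minus WT found 89% of the probe sets changed 4-fold and 12% of those changed 2-fold, and 5 of its 106 calls were false. The simulated noise was normal, independent between probe sets and of moderated variance, with no group difference beyond the changes put in. Recovery in the real data may therefore differ. Alternatives were the pseudocount, filter, scaling, prior, arrays fitted, replicate block, probe set choice, background percentile (99), fold limit and leaving out arrays. Figures were drawn with matplotlib 3.10.9.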

Additional observations from a re-analysis of the deposited data

How the results depend on the processing

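Each of the 27 called probe sets had both knockout arrays below both WT arrays, so leaving out an array could not turn its direction. The count of probe sets called lower was not stable. It was 0 with the pseudocount at the 10th percentile, 68 with it at the median, 7 with no filter, 86 with a filter at the 50th percentile, 12 after quantile normalization, 14 after median centring, 121 with an intensity trend and a robust prior, and 0 with only the knockout and WT arrays fitted. With the replicate block it was 0, and without any 1 array it was 0 in each fit. The replicate numbers are not shown to pair arrays. Higher probe sets, 0 in the report, numbered 6 with the median pseudocount, 7 with the 50th percentile filter, 13 with the trend and 1 with 1 probe set per gene, Krtap5-1, a keratin-associated gene near background (1.52 ± 0.13, limma adjusted p = 0.0265). Genes at least 2-fold lower numbered 35 with the median pseudocount, 180 at 1.5-fold and 23 at 3-fold, and 58 to 88 without an array. Genes at least 2-fold higher numbered 27 with the 10th percentile pseudocount, 7 with the median, 27 after median centring, 141 at 1.5-fold and 2 at 3-fold, and 13 to 52 without an array.

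List medians kept their sign for the 5 lists that follow. For endothelial transcription factors the median was -0.67 with the 10th percentile pseudocount, -0.33 with the median, -0.43 after quantile normalization, -0.44 after median centring, and -0.64 to -0.45 without an array. For junctions and surface it was -1.49, -0.91, -1.15 and -1.14 in the same order, -1.15 with the median over probe sets, and -1.31 to -1.14 without an array. For signalling and secreted proteins it was -0.61 with the median pseudocount and -1.16 to -0.76 without an array. For cardiomyocytes it was 0.32 to 0.56 without an array. For mural and mesenchymal genes it was 0.49 after median centring, 0.47 with the median over probe sets and 0.31 to 0.48 without an array. Of 192 named genes, each followed by its brightest probe set only, 168 kept their sign under all 10 alternatives. The cause of these shifts was not tested. With 2 arrays a group, 2-fold changes were seldom recovered in simulation (12%), and for knockout means below background only a bound on the fall can be given.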
